A study of Mus musculus with 16 samples.

Results

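10 genes of eicosanoid synthesis were followed in tumor-associated macrophages (TAMs): the lipoxygenase genes Alox15 and Alox5, the genes Alox5ap and Ltc4s of the leukotriene branch, the cyclooxygenase genes Ptgs1 and Ptgs2, and the synthase genes Ptges, Ptgis, Hpgds and Tbxas1. They were chosen by name, with earlier results of these data known, as 10 of the 55604 genes counted. All 10 were among the 16861 genes tested. RNA came from 4 pairs of TAM preparations, 1 Tim-4+ and 1 Tim-4- in each, isolated from the peritoneal cavity of mice bearing ID8 tumors. ID8 is a mouse ovarian epithelial cancer line, given here as luciferase-expressing cells by injection into the peritoneum. The mice were C57BL/6 females of 6 to 8 weeks, and cells were taken at 6 to 7 weeks of tumor growth. The methods describe a density gradient against tumor and dead cells, then beads that took the cells with surface Tim-4, a phosphatidylserine receptor of residential macrophages. Tim-4- TAMs were taken from what remained with beads against F4/80, a macrophage surface protein, so the F4/80 step was applied to that subset alone. Whether a cell sorter or a gate followed for the RNA is not clear from the sources used here. Both subsets came from tumor-bearing mice, so each difference is between subsets and not between tumor and no tumor. The labels give the pairs the numbers 793, 784, 783 and 779 and do not say whether a number is 1 mouse or several.

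Eicosanoids are oxygenated lipids made mostly from arachidonate released from membrane phospholipid. In one branch, lipoxygenases add oxygen to the fatty acid. Alox5, helped by the protein Alox5ap, opens the route to leukotrienes, which Ltc4s carries on to the cysteinyl leukotrienes, whereas Alox15 makes hydroxylated and hydroperoxy fatty acids and is long known as a mark of large residential macrophages of the mouse peritoneum. In the other branch, the cyclooxygenases Ptgs1 and Ptgs2 make the common prostaglandin precursor, which Ptges, Ptgis, Hpgds and Tbxas1 turn into prostaglandin E, prostacyclin, prostaglandin D and thromboxane, respectively.

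Promoter sequence was read for the members with an entry in the RefSeq table (build GRCm38.p6), which were 7 of the 10. Alox15, Alox5ap and Ptgis had none. The 250 bases before the start site are shown for the members with an entry that differed at least 2-fold between subsets, namely Ptgs2 and Ptges, which were higher in Tim-4+ TAMs, and Hpgds, which was lower. They lie at chr1:150099781-150100030 on the plus strand, chr2:30903298-30903547 on the minus strand and chr6:65144731-65144980 on the minus strand. The Ptges window lies inside, and the Hpgds window partly inside, the span that GENCODE gives the gene, since its start sites differ from those of RefSeq. Each is written 5′ to 3′ along its gene, and capitals mark the letters GGGCGG, a GC box.
Ptgs2: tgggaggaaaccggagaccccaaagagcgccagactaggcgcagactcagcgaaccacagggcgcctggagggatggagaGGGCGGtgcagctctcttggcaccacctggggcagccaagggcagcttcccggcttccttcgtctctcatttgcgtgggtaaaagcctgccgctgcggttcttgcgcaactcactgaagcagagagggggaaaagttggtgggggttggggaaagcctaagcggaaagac
Ptges: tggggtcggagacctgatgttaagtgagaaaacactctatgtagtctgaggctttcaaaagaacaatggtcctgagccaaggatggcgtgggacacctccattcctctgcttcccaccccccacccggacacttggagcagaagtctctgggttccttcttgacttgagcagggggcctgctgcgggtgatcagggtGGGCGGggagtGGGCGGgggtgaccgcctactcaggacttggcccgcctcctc
Hpgds: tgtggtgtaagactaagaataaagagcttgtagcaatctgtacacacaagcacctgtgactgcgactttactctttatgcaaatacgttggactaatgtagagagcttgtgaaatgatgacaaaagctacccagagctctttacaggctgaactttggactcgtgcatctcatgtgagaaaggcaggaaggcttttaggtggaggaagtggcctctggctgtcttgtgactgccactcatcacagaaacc

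4 motifs were searched on both strands of the 250-base windows: TATAAA (the TATA box), GATAA (letters bound by GATA factors), TGACG (part of the cyclic AMP response element) and GGGCGG (the GC box). Ptgs2 held the GC box once, from 170 to 165 bases before the start, and Ptges held it at 53 to 48 and at 42 to 37 bases. Hpgds, Ltc4s and Ptgs1 held none of the 4 motifs. Alox5 held the GATA letters and the GC box, and Tbxas1 held the TATA box on both strands at overlapping positions 13 to 6 bases before the RefSeq start. The Tbxas1 window also lies inside, and the Ltc4s window partly inside, the span that GENCODE gives the gene. Of 32851 promoters, 32.7% held the GC box, 22.6% the GATA letters, 17.8% the response element letters and 12.4% the TATA box.

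The libraries held 53527928 to 57768202 counts on genes for the Tim-4+ subset and 55618306 to 69594245 for the Tim-4- subset, each summed over 2 lanes. Levels are given as CPM, the count of a gene relative to its library's total after scaling by TMM, a factor that centers the bulk of the genes. The factors were 0.833 to 0.948 in Tim-4+ and 1.05 to 1.18 in Tim-4- libraries, so TMM raised Tim-4+ levels relative to total counts. A level of 3 counts was 0.0431 to 0.0560 CPM before TMM scaling. All 10 genes were above 3 counts in every library, with 84 to 395793 counts. Timd4, the gene of the selected protein, was 1160, 1743, 524 and 1166 CPM in Tim-4+ TAMs of pairs 793, 784, 783 and 779 and 84.9, 11.1, 22.3 and 1.96 CPM in Tim-4- TAMs, and its groups did not overlap. In what follows values are always given in this order of pairs. Subsets were compared with edgeR's quasi-likelihood test with the pair as a block, and adjusted p-values are by Benjamini-Hochberg over all genes tested.

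Of the 10 genes, 7 passed an adjusted p of 0.05 as higher in Tim-4+ TAMs (Alox15, Alox5, Alox5ap, Ptgs1, Ptgs2, Ptges and Ptgis), 1 was lower (Hpgds), and Ltc4s and Tbxas1 did not pass. Among all genes tested, 8.97% were higher and 8.43% lower by the same rule, but the 10 were not chosen blind to these data. With a change of at least 2-fold, 3 were higher (Alox15, Ptgs2 and Ptges) and 1 was lower, against 3.8% and 5.79% of all genes. The median log2 fold change of the 10 was 0.77, and that of all genes was -0.0012. The per-library plot shows these levels for each gene.

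**Figure D1:**
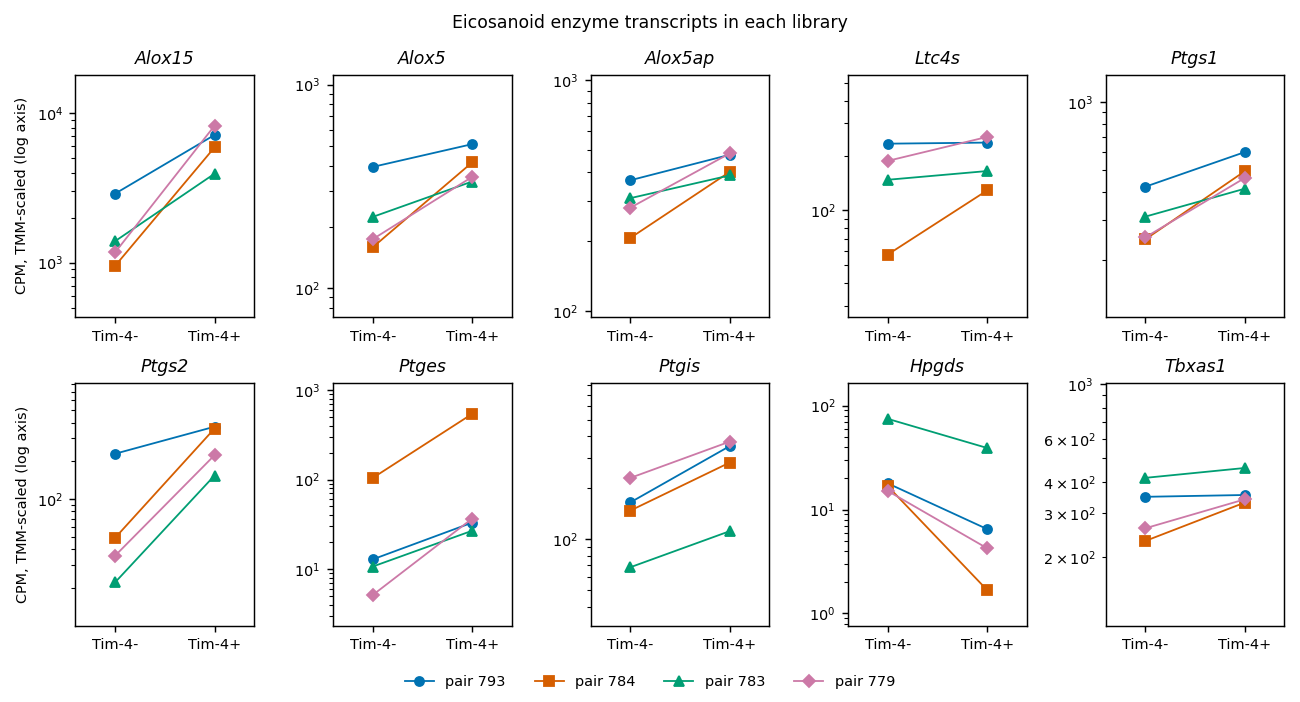
TMM-scaled CPM (log axis) of the 10 eicosanoid enzyme genes in Tim-4- and Tim-4+ TAMs, with a line and a marker shape for each of the 4 pairs. The line of Hpgds falls toward Tim-4+ in all 4 pairs, and those of the other genes rise or lie nearly flat. Pair 784 stands above the rest for Ptges, and pair 783 for Hpgds.

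Alox15 was by far the most abundant of the 10. Its level was 7139, 5897, 3929 and 8231 CPM in Tim-4+ TAMs and 2892, 952, 1391 and 1172 CPM in Tim-4- TAMs. The lowest Tim-4+ library lay above the highest Tim-4- library. The means were 6299 ± 1845 and 1602 ± 879 CPM (SD, n = 4 each). The difference was 2.06 ± 0.31 (SE) on the log2 scale, or 4.17-fold, with an adjusted p of 0.00887 and a 95% interval of 1.35 to 2.78. The log2 ratio was positive in 4 of 4 pairs, at 1.30, 2.63, 1.5 and 2.81. By counts per kb of exon, Alox15 took rank 11 to 21 of 16281 genes across Tim-4+ libraries and rank 19 to 61 across Tim-4- libraries, so it was among the leading transcripts of both subsets.

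Alox5, the 5-lipoxygenase that begins leukotriene synthesis, was 509, 414, 334 and 351 CPM in Tim-4+ TAMs and 394, 158, 224 and 174 CPM in Tim-4- TAMs. The groups overlapped through the Tim-4- library of pair 793, although the Tim-4+ library was the higher in each of the 4 pairs. Alox5 rose by 0.84 ± 0.18 on the log2 scale (adjusted p of 0.0213). Its partner Alox5ap, which presents arachidonate to the enzyme, was 475, 400, 386 and 481 CPM against 368, 207, 308 and 280 CPM. These groups did not overlap, as also held for Alox15 and no other of the 10 (2 of 10, against 6.84% of all genes with no overlap and higher in Tim-4+ and 5.92% with none and lower). Relative to total counts, without TMM, the groups of Alox5ap overlapped and those of Alox15 did not. Alox5ap rose by 0.61 ± 0.15 on the log2 scale (adjusted p of 0.0299).

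Ltc4s, the leukotriene C synthase, was 236, 129, 164 and 253 CPM in Tim-4+ TAMs and 232, 57.3, 147 and 187 CPM in Tim-4- TAMs. The ranges lay largely on each other, and the log2 ratio was 0.02, 1.17, 0.16 and 0.44 in the 4 pairs. The log2 fold change of 0.44 ± 0.19 did not pass (adjusted p of 0.152), with an interval of -0.0037 to 0.89 that leaves room for a difference near that of Alox5. An antisense gene, Gm26542, shares 26.4% of the exon bases of Ltc4s and had 244 to 849 counts against 4193 to 15515, and whether strand was used in counting is not given in the sources used here. Smaller overlaps of 1.58% to 13.3% with antisense or unclassified genes touch Alox5ap, Ptgs1, Ptgis and Tbxas1.

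Both cyclooxygenase genes were higher in Tim-4+ TAMs. Ptgs1, the constitutive enzyme, was 600, 494, 413 and 461 CPM in Tim-4+ TAMs and 422, 247, 311 and 252 CPM in Tim-4- TAMs. The groups overlapped by a small margin, since Tim-4- of pair 793 lay just above Tim-4+ of pair 783. Ptgs1 rose by 0.70 ± 0.14 on that scale (adjusted p of 0.0185), and the ratio was positive in 4 of 4 pairs.

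Ptgs2, the inducible enzyme, was 371, 359, 153 and 221 CPM in Tim-4+ TAMs and 227, 49.5, 22.0 and 35.7 CPM in Tim-4- TAMs. The Tim-4- library of pair 793 was well above the other 3 Tim-4- libraries and inside the Tim-4+ range. The log2 ratio was 0.71 in that pair and 2.86, 2.80 and 2.63 in the others. The log2 fold change of 2.28 ± 0.39, or 4.84-fold, had an adjusted p of 0.0155 and a 95% interval of 1.34 to 3.22. With no filter on low counts the adjusted p of Ptgs2 was 0.129 and the call was lost.

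The same Tim-4- library of pair 793 had the highest Alox15, Alox5, Alox5ap, Ltc4s, Ptgs1 and Ptgs2 of the Tim-4- libraries. It also had the highest Timd4 of them, and the summed level of 5 markers of residential peritoneal macrophages (Timd4, Gata6, Icam2, Vsig4 and Selp) was 771 CPM there against 304 to 361 CPM in the other 3. In Tim-4+ TAMs that sum was 1812 to 4003 CPM, lowest in pair 783, in which Alox15, Alox5, Alox5ap, Ptgs1 and Ptgs2 were also the lowest of the Tim-4+ libraries. The part of the marker level in these results was not tested. In RNA from bulk cells, fewer cells of a type and less RNA per cell cannot be told apart.

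**Figure D2:**
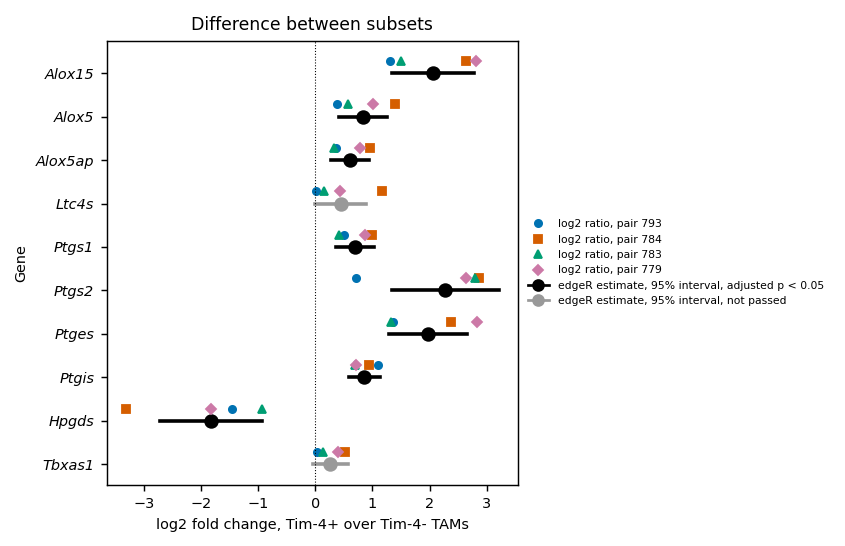
log2 fold change of each gene in Tim-4+ over Tim-4- TAMs (large points, with 95% intervals as bars) and the log2 ratio of each pair (small markers above). Black marks the 8 genes with an adjusted p under 0.05 and gray the 2 that did not pass. Hpgds alone lies to the left of 0, and Ptgs2 has 1 pair (793) at 0.71 and 3 pairs between 2.63 and 2.86.

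Among the synthases that act after the cyclooxygenases, Ptges and Ptgis were higher in Tim-4+ TAMs, Hpgds was lower and Tbxas1 did not pass. Ptges, the microsomal prostaglandin E synthase, was 33.0, 541, 26.8 and 36.5 CPM in Tim-4+ TAMs and 12.8, 104, 10.7 and 5.13 CPM in Tim-4- TAMs. Both libraries of pair 784 were above the 6 others, so the groups overlapped, but Tim-4+ was the higher in each pair, by log2 ratios of 1.36, 2.38, 1.33 and 2.83. Ptges rose by 1.97 ± 0.28 on the log2 scale, or 3.92-fold (adjusted p of 0.0105). The summed level of 8 neutrophil markers was 4.2 and 6.30 CPM in the Tim-4+ and Tim-4- libraries of pair 784, against 1.76 to 4.18 and 1.53 to 2.64 CPM in the other pairs, and its part in the level of Ptges was not tested.

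Ptgis, the prostacyclin synthase, was 350, 281, 111 and 372 CPM in Tim-4+ TAMs and 164, 147, 68.3 and 228 CPM in Tim-4- TAMs. The Tim-4+ library of pair 783 fell below 3 of the 4 Tim-4- libraries, while the ratio within pairs was even, at 1.10, 0.94, 0.70 and 0.71 on the log2 scale. The log2 fold change of 0.86 ± 0.12 had an adjusted p of 0.00779, the lowest of the 10 genes. Tbxas1, the thromboxane synthase, was 356, 331, 457 and 342 CPM against 350, 232, 417 and 261 CPM. Its log2 fold change of 0.26 ± 0.13 did not pass (adjusted p of 0.197, 95% interval -0.037 to 0.57) and became -0.093 when libraries were scaled to total counts. Platelets are rich in this enzyme, and their 6 markers other than Pf4 (which macrophages express too) summed to 2.31 to 4.38 CPM in Tim-4+ and 2.95 to 9.21 CPM in Tim-4- TAMs, with Treml1 at 0 in every library. Pf4 itself was higher, at 360 to 950 against 113 to 295 CPM (2.09 ± 0.28, adjusted p of 0.00855). The part of platelets in the level of Tbxas1 was not tested.

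Hpgds, the hematopoietic prostaglandin D synthase, went the other way. It was 6.49, 1.68, 39.1 and 4.24 CPM in Tim-4+ TAMs and 17.9, 16.8, 74.6 and 15.1 CPM in Tim-4- TAMs. Both libraries of pair 783 were far above the others of their subset, so the groups overlapped. Hpgds had a log2 fold change of -1.83 ± 0.37, or 3.55-fold lower in Tim-4+ TAMs (adjusted p of 0.0234), and the ratio was negative in 4 of 4 pairs (-1.46, -3.32, -0.93 and -1.83). Mast cells are known for this enzyme, and the summed level of 9 mast cell and basophil markers was 3.97 to 16.1 CPM in Tim-4+ and 20.1 to 68.4 CPM in Tim-4- TAMs, of which Mcpt4 and Kit passed the test as lower. Pair 783, where Hpgds was highest in both subsets, had the highest of these sums in Tim-4+ TAMs (16.1 CPM, of which Kit was 15.4) and the lowest in Tim-4- TAMs (20.1 CPM, of which Kit was 19.7). The part of mast cells in the level of Hpgds was not tested, and with no filter on low counts the adjusted p of Hpgds was 0.164.

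Libraries of a pair tended to be high or low together. Of the sum of squares of log2 CPM over the 8 libraries, the subset held 80.2% for Alox15, 64.3% for Ptgs1, 62.4% for Alox5ap, 57.5% for Ptgs2 and 52.5% for Alox5. The pair held the larger share for Ltc4s (76.8%), Ptges (72%), Tbxas1 (70.1%), Ptgis (69.7%) and Hpgds (59.9%). The pair has 3 degrees of freedom and the subset 1, and per degree of freedom the pair had the larger share for Ltc4s (25.6% against 11.7%) and Tbxas1 (23.4% against 19.4%) only.

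**Figure D3:**
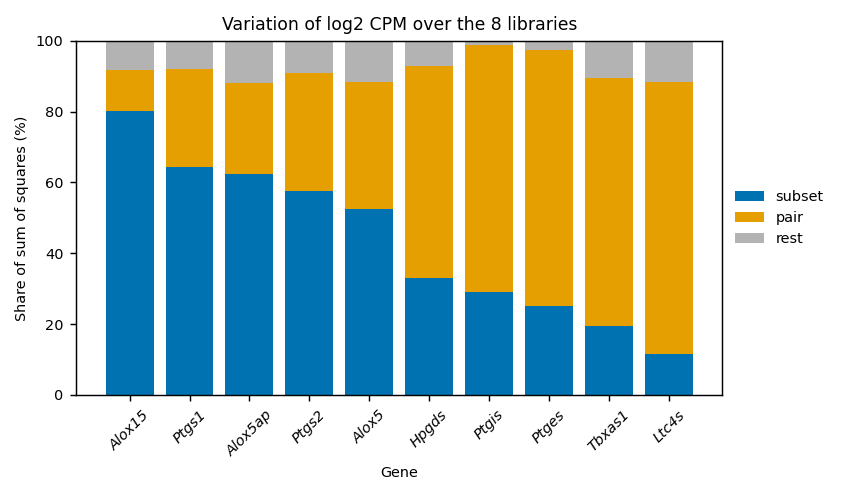
Share of the sum of squares of log2 CPM over the 8 libraries held by subset, pair and the rest (percent, stacked to 100) for each gene. The subset share runs from 80.2% for Alox15 down to 11.7% for Ltc4s, and the pair, with 3 degrees of freedom against 1, has the larger undivided share in the 5 genes at the right.

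Levels of different genes were compared per kb of exon (CPM per kb). In Tim-4+ TAMs the order of means was Alox15 (2567), Alox5ap (307), Ltc4s (193), Ptgs1 (127), Ptgis (109), Alox5 (97.9), Ptgs2 (60.3), Tbxas1 (40.9), Ptges (40.5) and Hpgds (2.01). The Tim-4+ libraries of Alox15 did not overlap those of Alox5ap, and those of Alox5ap did not overlap those of Ltc4s. From Ltc4s to Alox5 each neighbor overlapped the next, as did Ptgs2, Tbxas1 and Ptges in turn. In Tim-4- TAMs the order was the same except that Tbxas1 (34.6) stood before Ptgs2 (18.3), between Alox15 at 653 and Hpgds at 4.84 CPM per kb.

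**Figure D4:**
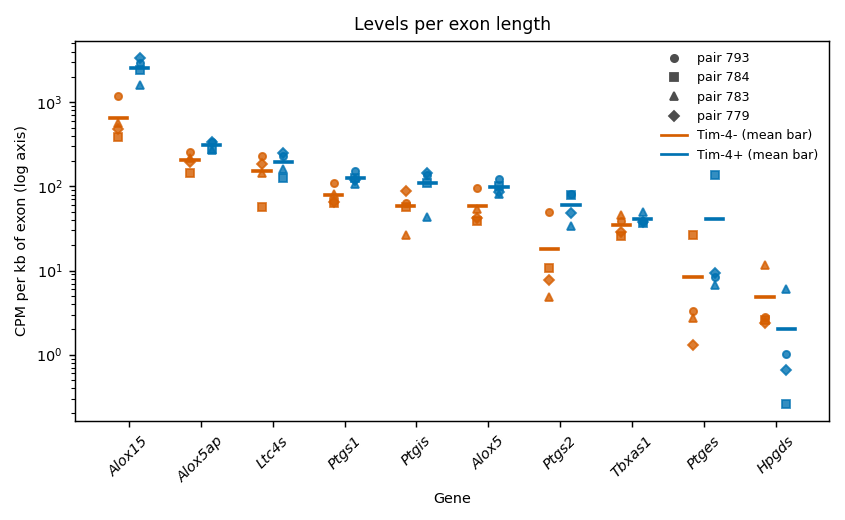
CPM per kb of exon (log axis) of each gene in Tim-4+ (blue) and Tim-4- (orange) TAMs, with a marker shape for each pair and a bar at the mean of 4 libraries. Genes are ordered by the Tim-4+ mean, from Alox15 at 2567 to Hpgds at 2.01.

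Ratios within a library, which do not depend on the scaling between libraries, showed how the balance of the enzymes differed. Alox15 exceeded Alox5 per kb 19.7 to 39.2 times over in Tim-4+ TAMs, against 10.1 to 12.3 times in Tim-4- TAMs, without overlap. The ratio of Alox15 to Ptgs1 was 15 to 28.3 in Tim-4+ and 6.09 to 10.8 in Tim-4- TAMs, again without overlap. The ratio of Ptgs2 to Ptgs1 was 0.314 to 0.617 in the Tim-4+ libraries, 0.0600 to 0.170 in 3 of the Tim-4- libraries and 0.457 in that of pair 793. The ratio of Alox5ap to Alox5 overlapped, at 2.70 to 3.96 and 2.70 to 4.66.

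The calls rested on the pairs to different degrees. Without pair 783, all 8 kept their calls. Without pair 784, none of the 8 passed, with adjusted p-values of 0.0505 (Hpgds) to 0.135 (Alox5ap), although each had the same direction and an unadjusted p under 0.05. Without pair 779, Alox5, Alox5ap, Ptgs1, Ptgs2 and Hpgds did not pass, without pair 793 Alox5ap and Hpgds did not, and without the pair as a block Alox15 alone passed (adjusted p of 0.0485).

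The genes around these enzymes, 67 in 8 lists of the eicosanoid pathway, were read from the same fit. Of the 47 tested, 8 were higher in Tim-4+ TAMs, 5 were lower and 34 did not pass, with a median log2 fold change of -0.03. That is a share of 13 in 47, beside 17.4% of all genes in either direction, and these lists too were not chosen blind to the data. Of the 9 tested phospholipases and lipases, Pla2g4a, the cytosolic phospholipase that frees arachidonate, was higher (log2 fold change 0.58 ± 0.16, adjusted p of 0.0417) and Daglb, a diacylglycerol lipase, was lower (-0.51 ± 0.09, adjusted p of 0.0139). Neither of the 2 other lipoxygenases tested passed, and this list summed to at most 2.21 CPM in any library, with Alox12e at -0.20 ± 0.48 (adjusted p of 0.815).

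Among genes of leukotriene synthesis and conversion, Ggt5, which cleaves leukotriene C, was lower at 2.46 to 7.51 against 6.73 to 17.3 CPM (-1.33 ± 0.26, adjusted p of 0.0171), and the other 4 tested did not pass. None of the 6 other prostaglandin synthases passed, the most abundant being Ptges3 (-0.11 ± 0.10, adjusted p of 0.495). Of 9 genes of breakdown and transport, Hpgd, which inactivates prostaglandins, was lower (-1.69 ± 0.32, adjusted p of 0.0141), as was Cyp4f18, which inactivates leukotriene B (-1.25 ± 0.18, adjusted p of 0.00907). Ptgr2, a prostaglandin reductase, was higher (0.45 ± 0.13, adjusted p of 0.0472), but kept that call in 3 of 13 alternative analyses, losing it without any of the 4 pairs (adjusted p of 0.0724 to 0.163) and falling to 0.093 under total counts.

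Among receptors, 2 of 5 tested prostanoid receptors were higher, Ptgir for prostacyclin (1.07 ± 0.20, adjusted p of 0.0157) and Ptger4 for prostaglandin E (0.77 ± 0.18, adjusted p of 0.0308). Of 7 tested receptors for leukotrienes and resolving mediators, Cmklr1, the chemerin receptor, was higher at 614 to 778 against 295 to 664 CPM (0.70 ± 0.16, adjusted p of 0.0257), and Fpr2, the lipoxin and formyl peptide receptor, was higher (0.53 ± 0.14, adjusted p of 0.0417). Fpr2 kept its call in 5 of 13 alternative analyses and lost it without any of the 4 pairs (adjusted p of 0.0627 to 0.151). Ltb4r1, the leukotriene B receptor, was lower without overlap, at 0.13 to 0.59 against 0.72 to 2.52 CPM (-2.85 ± 0.51, adjusted p of 0.0130). Of the 4 genes of arachidonate incorporation and lipid peroxide reduction, Lpcat3 and Gpx4 were higher (0.41 ± 0.10 and 0.55 ± 0.11, adjusted p of 0.0291 and 0.0180). Lpcat3 places arachidonate in phospholipid, and Gpx4 reduces lipid peroxides. The groups of Lpcat3 and of Gpx4 did not overlap with TMM, but both overlapped relative to total counts. Of all genes, 6.84% were higher and 5.92% lower without overlap. Lpcat3 and Pla2g4a each kept the call in 7 of 13 alternative analyses, and the other pathway genes that passed did so in 9 to 11 of the 12 or 13 that tested them. Under total counts, Ptgir alone of the pathway genes called higher kept its call (adjusted p of 0.0221), and Lpcat3 fell to 0.054. Pla2g4d and Ptgdr had no count in any library.

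**Figure D5:**
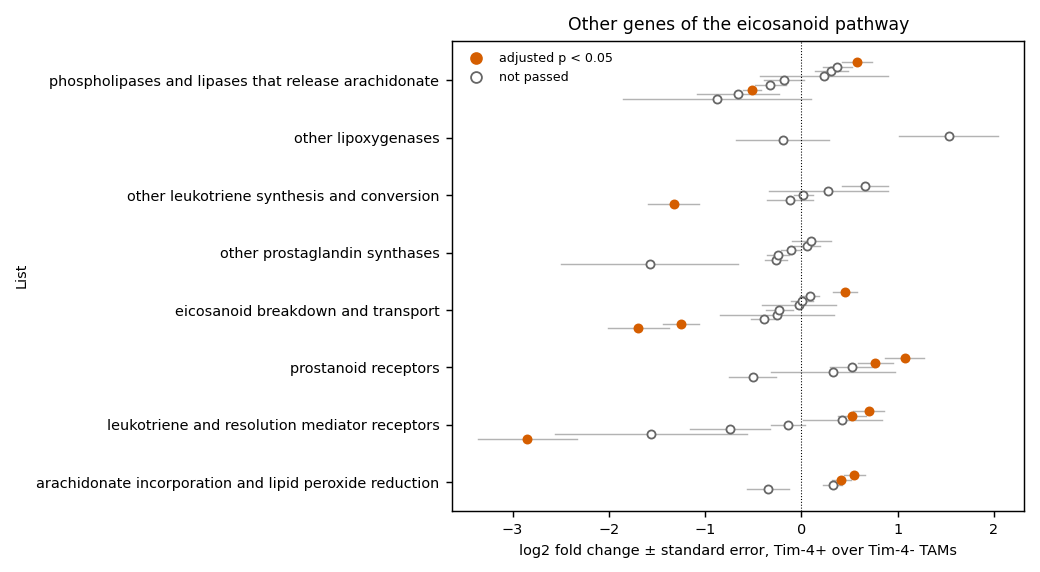
log2 fold change in Tim-4+ over Tim-4- TAMs (x axis, with 1 SE to each side) of the 47 tested genes of the 8 pathway lists (rows). Filled points mark the 13 genes with an adjusted p under 0.05, 8 to the right of 0 and 5 to the left, with Ltb4r1 farthest left at -2.85.

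Markers of some cell types differed between the subsets, whereas no tested marker of eosinophils, lymphocytes or endothelial cells passed. The 6 macrophage markers were present in every library, with a sum of 42994 to 55467 CPM for Tim-4+ and 20521 to 32940 CPM for Tim-4- TAMs. Most of that sum was Lyz2. Their log2 fold changes were 1.34 (Cd68), 1.28 (Adgre1), 1.24 (Itgam), 0.93 (Lyz2), 0.57 (Mertk) and 0.25 (Csf1r, adjusted p of 0.353). The changes of Alox5, Alox5ap, Ptgs1 and Ptgis lay within that range. The test called 5 of the 6 higher in the Tim-4+ subset, all 5 residential markers were higher, and 3 of 5 monocyte markers were lower. Of the residential markers, Timd4 is the gene of the selected protein, so its direction followed from the isolation. Of 10 markers of mesothelial, fibroblast and tumor epithelial cells 9 were lower, with a summed level of 114 to 437 CPM in Tim-4+ and 443 to 2060 CPM in Tim-4- TAMs, and in the Tim-4- libraries the sum was lowest in pair 793. Eosinophils also can express Alox15, and their 7 markers summed to 0.6 to 1.11 CPM and 0.465 to 0.944 CPM, with Ear1 at 0. Ptges, Ptgis and the other 5 higher members went against the mesothelial, fibroblast and tumor markers in direction, and Hpgds went with them, and their part in these results was not tested.

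The genes whose log2 CPM followed Alox15 most closely over the 8 libraries, among genes of at least 10 CPM, were Ptprm, a receptor tyrosine phosphatase (Pearson r = 0.992), P2rx1, an ATP-gated channel (0.991), Wnt2, a secreted Wnt ligand (0.991), Tcn2, which carries vitamin B12 (0.990), and the pseudogene Rab7-ps1 (0.989). Among the other 9 enzymes r with Alox15 was 0.949 for Alox5ap, 0.947 for Ptgs1, 0.909 for Alox5 and 0.890 for Ptgs2, from 0.376 to 0.637 for Ptges, Tbxas1, Ltc4s and Ptgis, and -0.634 for Hpgds. These values describe 8 libraries that share the division into subsets and the pairs.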

How the data were processed

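RNA of isolated TAM subsets was sequenced as 8 libraries, 1 for each subset of the 4 pairs, over 2 lanes. For every lane the authors deposited a table of raw counts, 1 row a gene, with no normalization. Libraries were ribosomal RNA-depleted, stranded and paired-end. The submitters' processing notes name FastQC 0.11.3, TopHat2 2.0.13, Cufflinks, Cuffdiff 2.2.1 and a mouse build, while the methods give a human reference, and the tool that counted reads per gene and its strand setting are not given in the sources used here. The sources do not say that the 4 samples of a subset were separate mice. With the pair as a block, p-values measure how the difference between subsets varied over these 4 pairs, with variance moderated over genes. They do not measure the spread between samples of a subset or between mice.

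1 table (Tim-4-, pair 793, lane 1) names genes by symbol and was joined by order, where 96.9% of comparable symbols matched, all 10 members included. Lanes of a library were summed to 1 replicate. Their chi-square per degree of freedom of 2.29 to 2.42 is more than counting error alone gives. Lane 2 of the Tim-4- library of pair 779 had 9.11% of reads not uniquely aligned, against 24.5% in its lane 1, for a reason not known. With either lane alone, 7 members were higher and 1 was lower. Names, exon lengths and coordinates are from GENCODE M21 on GRCm38. In it the members span chr11:70344152-70352031 (Alox15), chr6:116410077-116461178 (Alox5), chr5:149264767-149288153 (Alox5ap), chr11:50236461-50238616 (Ltc4s), chr2:36230426-36252272 (Ptgs1), chr1:150100031-150108227 (Ptgs2), chr2:30889471-30929863 (Ptges), chr2:167191805-167240604 (Ptgis), chr6:65117293-65144908 (Hpgds) and chr6:38875404-39084585 (Tbxas1).

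The 16861 genes that reached 10 counts in 4 or more libraries were tested with edgeR 4.0.16 (R 4.3.3), using the robust quasi-likelihood test, TMM factors and a block for the pair. Benjamini-Hochberg adjustment ran over all of them. The pair numbers come from the labels. A supplementary table of the study lists the pairs intact but with these numbers in reverse order, so which number a pair carries is open, while the comparisons do not depend on it. Under the labels' numbers the deviations of the 2 subsets of a pair correlated at 0.471, 0.498, 0.408 and 0.277. SE is the log2 fold change divided by the square root of the F statistic, and likeness used log2 CPM (prior count 2). The fit was also run on simulated counts with known changes, and it recovered most but not all of the changed genes. Floors cover counting error only. Alternatives were DESeq2 1.42.0 and its size factors, total counts, other filters, no block, single lanes, joining by symbol and leaving out each pair. Named pathway genes are those with an adjusted p under 0.05 and a mean of at least 1 CPM, up to 4 a list by size, or the most abundant gene of a list with none, and likeness gives the 5 highest r. The members and lists were chosen with earlier results of these data known.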

Additional observations from a re-analysis of the deposited data

Results flagged for a closer look

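Within a subset of 4 libraries, 1 library stood apart from the other 3 (a gap beyond Dixon's 95% limit, taken on CPM) in 8 of 50 groups of values. Chance gives about 1 in 20 such groups where values are normally distributed and groups are independent, but these 50 share the same 8 libraries. On log2 CPM 3 of the 8 were past the limit, Ptges in Tim-4+, Hpgds in Tim-4- and Ptger4 in Tim-4+ TAMs. Ptgs2 was 227 CPM in the Tim-4- library of pair 793 against 22.0 to 49.5 CPM in the other Tim-4- libraries. Ptges was high in both libraries of pair 784, at 541 CPM in Tim-4+ TAMs against 26.8 to 36.5 CPM and at 104 CPM in Tim-4- TAMs against 5.13 to 12.8 CPM. Hpgds was high in both libraries of pair 783, at 39.1 CPM in Tim-4+ TAMs against 1.68 to 6.49 CPM and at 74.6 CPM in Tim-4- TAMs against 15.1 to 17.9 CPM. In the same Tim-4+ library of pair 783, Cyp4f18 was high at 94.5 CPM (others 26.4 to 33.4) and Ptger4 was low at 102 CPM (others 195 to 213). Fpr2 was 92.4 CPM in the Tim-4- library of pair 784 against 7.87 to 19.5 CPM.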

How the results depend on the processing

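Without the pair block, edgeR's test called 1 member higher (Alox15) and 0 lower (5 and 0 at an unadjusted p under 0.05), 1 higher and 0 lower with 2-fold, 0 pathway genes higher and 0 lower (6 and 4 unadjusted), and 147 genes higher and 85 lower among all genes. Under total counts the median over all genes was -0.36 on the log2 scale. That scaling gave 1 pathway gene higher (Ptgir) and 14 lower, and 789 genes higher and 4903 lower, against 1512 and 1421 with TMM. It gave 6 members higher (Alox5ap lost its call) and a reversed Tbxas1 at -0.093. Alox5, Ptgs1 and Ptgis kept their calls, with log2 fold changes down to 0.48, 0.34 and 0.50. With no count filter edgeR called 6 members higher (2 with 2-fold, as Ptgs2 lost its call) and 0 lower, with or without 2-fold (1 unadjusted). DESeq2, run with the filter, called 7 higher and 1 lower. At least 50 counts in all libraries gave 3 pathway genes lower, lane 1 alone 5 higher, and DESeq2's Wald test 2323 genes lower. Leaving out 1 pair gave 0 to 7 members higher and 0 to 1 lower, or 0 to 3 and 0 to 1 with 2-fold, 0 to 6 and 0 to 7 pathway genes, and 78 to 1573 and 54 to 1895 of all genes, higher and lower respectively. The lowest were without pair 784 (0 members called, but 7 higher and 1 lower unadjusted), where Alox12e reversed (-0.47 to 0.28 over the 4 pairs left out). Members higher numbered 3 without pair 779, 6 without pair 793 and 7 without pair 783, and of these 4 fits Hpgds passed only in that without pair 783. Alox15 passed in 12 of 13 alternatives, with log2 fold changes of 1.70 to 2.32. The cause of these changes was not tested. Of the other values of single genes, 191 kept direction and call, 38 lost a call and 1 gained one, and on leaving out a pair 56 kept both and 47 lost a call. The fewest counts of any member in a library were 84 (Hpgds).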
